A study of Homo sapiens with 9 samples.

Results

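The transcripts of 33 genes that fold, check and dispose of proteins in the endoplasmic reticulum (ER), or that sense protein-folding stress there, were followed in human cells labelled HepG2. The genes were taken by symbol from a deposited table of 62703 genes. The 33 were 11 lumenal HSP70 and HSP90 chaperones and their partners, 2 lectin chaperones, 8 disulfide isomerases and oxidases, 6 genes of ER-associated degradation, 4 genes for the stress sensors and XBP1, and 2 genes for translocation and proline isomerization. Each symbol stood once in the table, and all 33 genes passed the filter on low values.

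RNA sequencing was done on 9 libraries, 3 from each of 3 treatments. In the first treatment, called curcumin with CuCl2, cells that had received 750 µM palmitic acid for 24 h were given 20 µM curcumin and 5 µM CuCl2 for 12 h. In the second, called curcumin, the 750 µM palmitic acid for 24 h was followed by 20 µM curcumin for 12 h. The third had 750 µM palmitic acid for 24 h and nothing further. Palmitic acid is a saturated fatty acid and curcumin a polyphenol of turmeric. All 3 groups therefore carry palmitic acid. The labels describe no cells without it, no vehicle control and no 12 h of further culture for the cells with palmitic acid alone. Curcumin and those 12 h cannot be told apart in the comparisons with palmitic acid alone.

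Proteins bound for secretion or for membranes fold in the ER, helped by chaperones such as BiP (gene HSPA5) and by enzymes that form disulfide bonds. When unfolded protein builds up, the sensors IRE1 (ERN1), ATF6 and PERK (EIF2AK3) start the unfolded protein response. IRE1 splices XBP1 mRNA, ATF6 is cut to release a transcription factor, and PERK slows translation and favours that of ATF4. ATF6 and spliced XBP1 raise transcription of chaperone genes through short promoter elements. Hepatocytes secrete much protein and rely on this system, and saturated fatty acids are known to activate it in liver cells.

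The upstream sequences of the 3 genes that passed the test for curcumin against palmitic acid alone, and of HSPA5, the classical marker of the response, show how these elements sit. The sequences are from RefSeq on GRCh38.p14, read 5′ to 3′ in the direction of the gene, and stop before a RefSeq start. Capitals mark the fixed letters of 3 elements, searched on both strands. The ER stress response element ERSE is CCAAT and CCACG with 9 free bases between them, ERSE-II is ATTGG and CCACG with 1 free base between them, and the unfolded protein response element is UPRE, here TGACGTGG. HSPA5 is shown at chr9:125241344-125241593 on the minus strand, with 1 ERSE. CALR is shown at chr19:12938359-12938577 on the plus strand, with 1 ERSE that lies opposite to the gene. HYOU1 is shown at chr11:119057206-119057455 on the minus strand, with 2 copies of ERSE-II opposite to the gene and a UPRE that overlaps the first of them. DNAJB11 is shown at chr3:186570470-186570719 on the plus strand and holds none of these 3 letter strings in this window. GENCODE starts this gene upstream of the window, at base 186567403, and the bases before that start were not searched.
HSPA5: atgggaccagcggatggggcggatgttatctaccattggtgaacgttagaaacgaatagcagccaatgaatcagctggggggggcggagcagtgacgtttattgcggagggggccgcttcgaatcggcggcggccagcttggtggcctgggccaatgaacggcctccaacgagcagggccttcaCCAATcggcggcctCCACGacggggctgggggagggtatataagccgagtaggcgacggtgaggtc
CALR: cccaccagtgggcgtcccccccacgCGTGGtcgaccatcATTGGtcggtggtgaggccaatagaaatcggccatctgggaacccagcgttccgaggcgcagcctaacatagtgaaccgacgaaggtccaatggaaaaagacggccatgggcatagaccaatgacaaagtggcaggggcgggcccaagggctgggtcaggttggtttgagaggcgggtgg
HYOU1: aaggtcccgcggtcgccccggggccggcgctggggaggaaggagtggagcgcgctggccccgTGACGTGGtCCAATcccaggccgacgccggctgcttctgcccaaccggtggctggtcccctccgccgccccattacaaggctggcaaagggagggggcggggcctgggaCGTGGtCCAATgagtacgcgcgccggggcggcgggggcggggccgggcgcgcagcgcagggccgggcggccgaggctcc
DNAJB11: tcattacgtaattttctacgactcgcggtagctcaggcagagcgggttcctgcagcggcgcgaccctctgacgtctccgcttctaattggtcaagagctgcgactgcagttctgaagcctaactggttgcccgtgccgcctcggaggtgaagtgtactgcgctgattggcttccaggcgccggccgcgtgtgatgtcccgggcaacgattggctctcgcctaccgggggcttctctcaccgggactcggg

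RefSeq promoter windows were found for 31 of the 33 genes, in 38 windows that each ran from 250 bases before the start to 50 bases after it. ERSE was present in 10 of the 38 windows (26.3%), against 27 of all 35116 windows of the same length (0.0769%). Since 3 overlapping windows of CANX hold the same site, this is 8 of 31 genes, against 25 of all 27305 gene symbols with a window. Its description rests in part on genes of this kind, so these shares are no independent finding. ERSE-II was present in 3 of the 38 windows (7.89%) and in 19 of the 35116 windows (0.0541%). These ERSE-II shares are likewise no independent finding. UPRE was present in 3 of the 38 windows (7.89%) and in 256 of the 35116 windows (0.729%). The end letters of ERSE and ERSE-II were fixed by the search, and the spacer was free. Some of the matches are given below in their own reading direction, to show how the spacer differs from gene to gene. They lie at chr9:125241391-125241409 (HSPA5), chr12:103930216-103930234 and chr12:103930321-103930339 (HSP90B1, first and second), chr19:12938384-12938402 (CALR), chr2:10812853-10812871 (PDIA6), chr22:28800603-28800621 (XBP1) and chr16:56932025-56932035 (HERPUD1). The last is an ERSE-II, the others are ERSE.
HSPA5: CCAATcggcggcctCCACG
HSP90B1, first: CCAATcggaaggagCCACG
HSP90B1, second: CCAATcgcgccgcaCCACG
CALR: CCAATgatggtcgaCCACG
PDIA6: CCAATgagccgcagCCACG
XBP1: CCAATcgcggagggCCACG
HERPUD1: ATTGGgCCACG

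Levels are the authors' TPM, a length-scaled transcript abundance with the same total in every library, so that the number of reads is unknown. A library held 13208 to 13737 genes at 1 TPM or more. Among 18 genes that mark hepatocytes, 17 averaged under 1 TPM and 6 were listed at 0 in every library, among them ALB, APOB and TTR. Their summed level was 7.99 to 8.60 TPM with curcumin and CuCl2, 7.20 to 10.2 TPM with curcumin and 8.47 to 9.51 TPM with palmitic acid alone. The libraries therefore go against the expression of a hepatocyte line, and the cells are called only by their label. Of 6 epithelial marker genes, EPCAM, CDH1 and KRT19 averaged only 0.0044, 0.40 and 0.0056 TPM. The sum of the 6 came nearly all from the other 3, the keratin genes KRT7, KRT8 and KRT18. It was 2637 to 2715 TPM with curcumin and CuCl2, 2505 to 2865 TPM with curcumin and 3314 to 3812 TPM with palmitic acid alone. This keratin sum moved with the treatments as several chaperone genes did, and its part in the results below was not tested.

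In cells given curcumin after palmitic acid, 3 of the 33 genes fell relative to cells with palmitic acid alone. These were CALR, DNAJB11 and HYOU1, which fell by 19.3%, 17.8% and 24.0% in mean TPM. None of the 33 genes rose. Among all 13443 genes tested, 1.21% fell and 0.759% rose. The test was limma's moderated test on log2(TPM + 1), with p-values adjusted over all genes by the Benjamini-Hochberg method and a threshold of 0.05. Log2 fold changes below are on that scale and are followed by their standard error (SE).

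The log2 fold change of curcumin against palmitic acid alone was below 0 for 31 of the 33 genes, against 53.5% of all genes. Its median was -0.19 over the 33 genes and -0.02 over all genes. The libraries of the 2 groups did not overlap, with curcumin lower, for 13 of the 33 genes, against 8.61% of all genes. For curcumin with CuCl2 against palmitic acid alone, 0 of the 33 genes passed limma's adjusted threshold, which 0.9% of all genes passed in the lower direction. At an unadjusted p under 0.05 there were 12 of the 33, against 13.5% of all genes. The log2 fold change was below 0 for 32 of them, against 56.1% of all genes, with a median of -0.15 against -0.03 over all genes. The groups did not overlap for 12 genes, again lower, against 10.3% of all genes. The comparisons share the libraries with palmitic acid alone, so each is given with its own values. In bulk RNA, fewer cells that express a gene and less of its RNA per cell cannot be told apart.

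Together the 33 genes held 1.06%, 1.06% and 1.07% of all TPM in the 3 libraries with curcumin and CuCl2. They held 1.01%, 1.05% and 1.01% with curcumin, and 1.25%, 1.22% and 1.16% with palmitic acid alone. Every library with palmitic acid alone lay above every library of the other groups. The sum is carried by a few abundant genes, chiefly CALR, HSPA5, PPIB and HSP90B1.

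**Figure D1:**
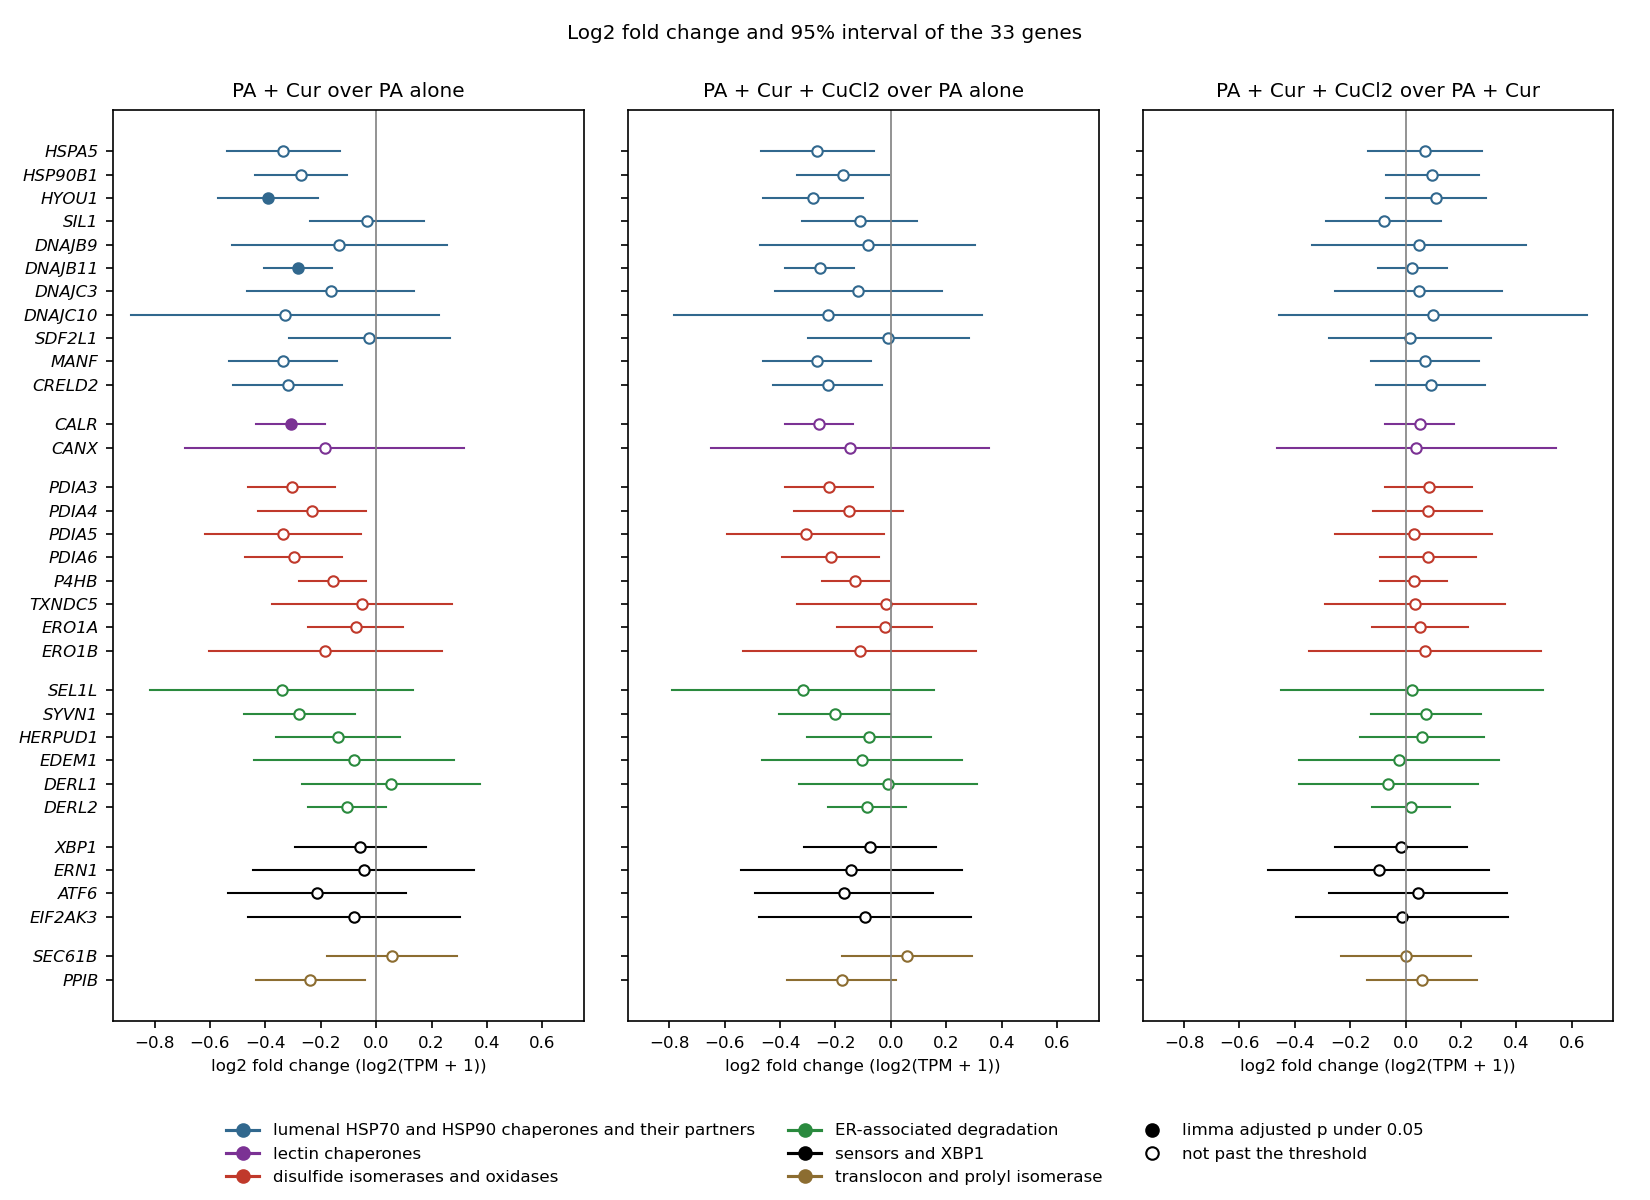
Log2 fold change on the log2(TPM + 1) scale (x axis) of each of the 33 genes (y axis, by role) in the 3 comparisons, with 95% confidence intervals from limma. Filled points passed the adjusted threshold, which CALR, DNAJB11 and HYOU1 did for curcumin against palmitic acid alone, while the points for curcumin with CuCl2 against curcumin lie close to 0.

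Among the lumenal HSP70 and HSP90 chaperones and their partners, 2 of the 11 fell with curcumin. All 11 log2 fold changes were below 0 in both comparisons with palmitic acid alone, but under some alternative scaling, covariate or left-out library those of SDF2L1, DNAJB9 and SIL1 turned positive. HYOU1 encodes GRP170, a large HSP70 relative that exchanges nucleotide on BiP. Its level was 257, 275 and 281 TPM with curcumin and CuCl2, 250.02, 264 and 240.05 TPM with curcumin, and 365, 329.5 and 298 TPM with palmitic acid alone. The libraries with palmitic acid alone were the 3 highest, with the third nearest to the rest. For curcumin against palmitic acid alone, HYOU1 had a log2 fold change of -0.39 (SE 0.08, limma adjusted p = 0.0458). It was -0.28 (SE 0.08, limma adjusted p = 0.138) for curcumin with CuCl2 against palmitic acid alone.

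DNAJB11 encodes ERdj3, a J-domain protein that hands unfolded clients to BiP. Its level was 321, 304 and 306 TPM with curcumin and CuCl2, 307, 309.95 and 298 TPM with curcumin, and 382, 378 and 354 TPM with palmitic acid alone. The groups were tight, at 305 ± 6.12 TPM with curcumin and 371 ± 15.0 TPM with palmitic acid alone (SD, n = 3 each). DNAJB11 had a log2 fold change of -0.28 (SE 0.06, limma adjusted p = 0.0389) for curcumin and -0.26 (SE 0.06, limma adjusted p = 0.0598) for curcumin with CuCl2.

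HSPA5 (chr9:125234853-125241330, minus strand, GRCh38), which encodes BiP itself, stood at 1373, 1423 and 1406 TPM with curcumin and CuCl2. It stood at 1265, 1458 and 1289 TPM with curcumin, and at 1837, 1777 and 1461 TPM with palmitic acid alone. The third library with palmitic acid alone was only just above the second with curcumin. HSPA5 was 21.0% lower on average with curcumin than with palmitic acid alone, with a log2 fold change of -0.33 (SE 0.09) that missed the threshold (limma adjusted p = 0.114). Its log2 fold change for curcumin with CuCl2 was -0.27 (SE 0.09, limma adjusted p = 0.217).

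HSP90B1 encodes GRP94, the HSP90 of the ER. Its level was 1009, 1026 and 995 TPM with curcumin and CuCl2, 891, 1023 and 923 TPM with curcumin, and 1228, 1154 and 1043 TPM with palmitic acid alone. The group with palmitic acid alone again lay above the others without overlap. HSP90B1 had a log2 fold change of -0.27 with curcumin (SE 0.07, limma adjusted p = 0.116), and of -0.17 when CuCl2 was added (SE 0.07, limma adjusted p = 0.339).

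**Figure D2:**
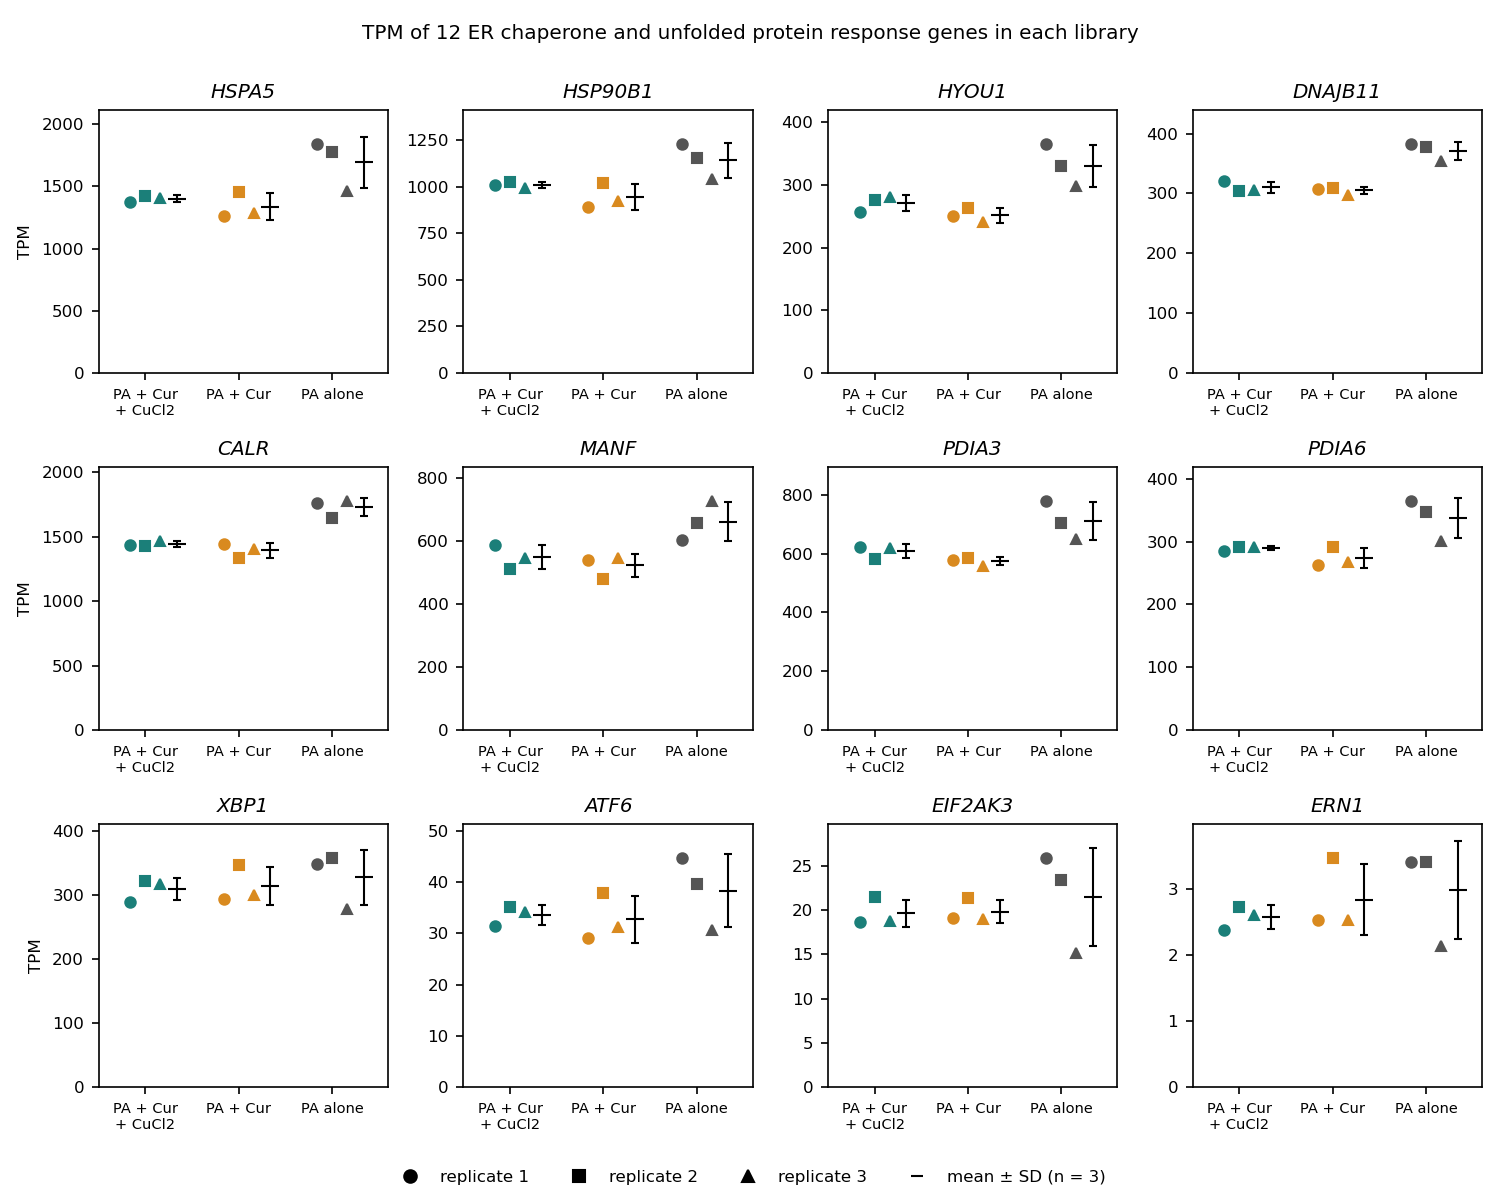
TPM (y axis, from 0) of 12 of the 33 genes in each library, by treatment (x axis), with points for the 3 libraries of a group and the mean and SD beside them. The libraries with palmitic acid alone lie above all others for HSPA5, HSP90B1, HYOU1, DNAJB11 and CALR, and overlap with the others for XBP1, ERN1, ATF6 and EIF2AK3.

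MANF and CRELD2 encode small ER proteins that can be secreted, and MANF binds BiP. MANF averaged 548 ± 38.0 TPM with curcumin and CuCl2, 522 ± 36.8 TPM with curcumin and 661 ± 61.9 TPM with palmitic acid alone (SD, n = 3 each). Neither group given curcumin overlapped with palmitic acid alone, and the log2 fold change of MANF with curcumin was -0.34 (SE 0.09, limma adjusted p = 0.0958). CRELD2 averaged 47.1 ± 1.35 TPM, 44.3 ± 3.94 TPM and 55.4 ± 4.07 TPM in the same order, also without overlap with palmitic acid alone (log2 fold change -0.32 with curcumin, SE 0.09, limma adjusted p = 0.114).

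The other 5 partners overlapped between all groups. SIL1, the other nucleotide exchange factor of BiP, had log2 fold changes of -0.11 with curcumin and CuCl2 and -0.03 with curcumin against palmitic acid alone. SDF2L1, which works with DNAJB11, had log2 fold changes of -0.01 with curcumin and CuCl2 and -0.03 with curcumin. Both values of SDF2L1 turned positive, at 0.04 and 0.01, under median-of-ratios scaling. DNAJC10, which reduces disulfide bonds, varied most: 10.9, 12.1 and 9.86 TPM with curcumin and CuCl2, 8.13, 14.3 and 8.80 TPM with curcumin, and 17.4, 13.9 and 8.92 TPM with palmitic acid alone. Its log2 fold changes had an SE of 0.25, against 0.17 for DNAJB9 and 0.13 for DNAJC3, which also encode J-domain proteins. Palmitic acid alone gave 74.7, 88.6 and 52.8 TPM for DNAJB9.

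The lectin chaperones hold newly made glycoproteins until they fold. CALR (chr19:12938578-12944489, plus strand), which encodes the soluble one, calreticulin, stood at 1438, 1424 and 1465 TPM with curcumin and CuCl2. It stood at 1446, 1333 and 1402 TPM with curcumin, and at 1761, 1645 and 1773 TPM with palmitic acid alone. All 3 libraries with palmitic acid alone were well above the other 6. CALR had a log2 fold change of -0.31 with curcumin (SE 0.05, limma adjusted p = 0.0268), and of -0.26 when CuCl2 was added (SE 0.05, limma adjusted p = 0.0579). CANX, which encodes the membrane-bound calnexin, averaged 369 ± 30.7 TPM with curcumin and CuCl2, 366 ± 97.95 TPM with curcumin and 420 ± 118 TPM with palmitic acid alone (SD, n = 3 each). Its libraries ranged from 289 to 517 TPM with palmitic acid alone, which spans both other group means.

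The 3 calls did not hold when most single libraries were left out. With any 1 library left out other than the third of palmitic acid alone, 0 of the 33 genes passed the limma threshold in either comparison with palmitic acid alone. That included each library with curcumin and CuCl2, although such a library does not enter the fold changes of curcumin against palmitic acid alone. Their median stayed at -0.19, while the shared estimate of spread rested on fewer samples. Without the third library of palmitic acid alone, 8 passed with curcumin, CALR, DNAJB11 and HYOU1 among them, and 5 with curcumin and CuCl2, all lower, against 3.05% and 2.62% of all genes. HSPA5 was among those in both comparisons.

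Disulfide isomerases form and reshuffle disulfide bonds, and the ERO1 oxidases recharge them. None of the 8 genes passed the threshold, and all 8 log2 fold changes were below 0 in both comparisons with palmitic acid alone. Under median-of-ratios scaling TXNDC5 and ERO1A turned positive with curcumin and CuCl2, at 0.03 and 0.02, and TXNDC5, ERO1A and ERO1B also did so under other alternatives. PDIA3, which encodes ERp57, the isomerase that works with the lectin chaperones, came closest. It averaged 608 ± 23.1 TPM with curcumin and CuCl2, 574 ± 13.7 TPM with curcumin and 711 ± 63.7 TPM with palmitic acid alone (SD, n = 3 each), and the last overlapped with neither of the others. Its log2 fold change with curcumin was -0.31 (SE 0.07, limma adjusted p = 0.0691). The pseudogene PDIA3P1, whose reads could be shared with PDIA3, averaged 1.25 TPM.

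PDIA6, which encodes an isomerase that also binds IRE1, averaged 289 ± 3.36 TPM with curcumin and CuCl2, 274 ± 15.997 TPM with curcumin and 338 ± 32.4 TPM with palmitic acid alone (SD, n = 3 each), and its libraries with palmitic acid alone again lay above all others. PDIA6 had a log2 fold change of -0.30 with curcumin (SE 0.08, limma adjusted p = 0.0998). P4HB, which encodes the founding isomerase PDI, had a smaller log2 fold change of -0.16 with curcumin (SE 0.05, limma adjusted p = 0.206), and palmitic acid alone overlapped with neither group given curcumin. PDIA4 and PDIA5 overlapped between curcumin and palmitic acid alone, with log2 fold changes of -0.23 and -0.34. The remaining 3 genes lay nearer to 0 or varied more. TXNDC5 had a log2 fold change of -0.05 with curcumin, ERO1A one of -0.07, and ERO1B, the least abundant at 3.23 to 5.73 TPM, one of -0.18.

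ER-associated degradation pulls misfolded proteins out of the ER for the proteasome. None of its 6 genes passed the threshold. SYVN1, which encodes the ubiquitin ligase HRD1, averaged 63.2 ± 3.80 TPM with curcumin and CuCl2, 60.0 ± 1.70 TPM with curcumin and 73.1 ± 8.21 TPM with palmitic acid alone (SD, n = 3 each). All 3 libraries with palmitic acid alone lay above the other 6, and the log2 fold change with curcumin was -0.28 (SE 0.09, limma adjusted p = 0.179). SEL1L encodes the partner of HRD1 and had the lowest log2 fold change of the 33 genes for curcumin with CuCl2 against palmitic acid alone, at -0.32 (SE 0.21, limma adjusted p = 0.575). Its level was 15.4, 16.9 and 15.2 TPM with curcumin and CuCl2, 13.35, 20.5 and 13.7 TPM with curcumin, and 24.1, 23.2 and 14.2 TPM with palmitic acid alone. The third library with palmitic acid alone lay among the others, so that the groups overlapped.

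HERPUD1, a membrane component of the degradation complex and a known target of the response, averaged 595 ± 25.9 TPM with curcumin and CuCl2, 571 ± 41.1 TPM with curcumin and 631 ± 85.7 TPM with palmitic acid alone (SD, n = 3 each). The differences were smaller than the spread with palmitic acid alone. EDEM1, which marks glycoproteins for disposal, and the derlin gene DERL1 likewise overlapped. The derlin gene DERL2 lay lower with curcumin in every library, by a log2 fold change of -0.10 (SE 0.06, limma adjusted p = 0.529). DERL1 had a log2 fold change of 0.05 with curcumin, 1 of the 2 positive values of the 33 genes in that comparison.

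No difference passed the threshold for the 4 genes of the sensors and XBP1, and their groups overlapped in both comparisons with palmitic acid alone. The table gives 1 value per gene, so spliced and unspliced XBP1 are not separated, and sensor activity is not measured by sensor mRNA. XBP1 stood at 290.1, 322 and 318 TPM with curcumin and CuCl2, at 294, 348 and 301 TPM with curcumin, and at 348, 358 and 278 TPM with palmitic acid alone. XBP1 had a log2 fold change of -0.06 with curcumin, with a 95% interval of -0.29 to 0.18 (limma adjusted p = 0.896). When CuCl2 was added it was -0.07, with an interval of -0.31 to 0.16 (limma adjusted p = 0.854).

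ATF6 stood at 31.5, 35.2 and 34.2 TPM with curcumin and CuCl2, at 29.1, 37.8 and 31.25 TPM with curcumin, and at 44.6, 39.6 and 30.6 TPM with palmitic acid alone. Its log2 fold change of -0.21 with curcumin had an interval of -0.53 to 0.11 (limma adjusted p = 0.584). EIF2AK3 stood at 18.7, 21.4 and 18.7 TPM with curcumin and CuCl2, at 19.1, 21.3 and 19.0 TPM with curcumin, and at 25.8, 23.3 and 15.2 TPM with palmitic acid alone. Both extremes of this gene came from libraries with palmitic acid alone. ERN1 was the least abundant of the 33 genes, at 2.37, 2.73 and 2.6 TPM with curcumin and CuCl2, at 2.53, 3.46 and 2.52 TPM with curcumin, and at 3.41, 3.41 and 2.13 TPM with palmitic acid alone. The intervals of EIF2AK3 (-0.46 to 0.30 with curcumin) and ERN1 (-0.44 to 0.35 with curcumin) leave differences in either direction possible.

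SEC61B encodes a subunit of the channel through which proteins enter the ER, and had the highest log2 fold change of the 33 genes in both comparisons with palmitic acid alone, at 0.06 in each. Its level was 496, 425 and 443 TPM with curcumin and CuCl2, 462, 428 and 471 TPM with curcumin, and 376, 438 and 502 TPM with palmitic acid alone. The 3 libraries with palmitic acid alone enclosed all others. PPIB, which encodes the proline isomerase cyclophilin B, averaged 1238 ± 45.1 TPM with curcumin and CuCl2, 1190 ± 76.9 TPM with curcumin and 1407 ± 169 TPM with palmitic acid alone (SD, n = 3 each). Its log2 fold change with curcumin was -0.24 (SE 0.09, limma adjusted p = 0.249).

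None of the 33 genes passed the adjusted threshold when CuCl2 was added to curcumin. For curcumin with CuCl2 against curcumin, log2 fold changes ran from -0.10 (ERN1) to 0.11 (HYOU1), with a median of 0.05, against -0.008 over all genes. They were below 0 for 7 of the 33 genes, against 7286 of all 13443 genes. The groups overlapped for all 33 genes, while 3.61% of all genes were lower without overlap, and 0 of them reached an unadjusted p under 0.05 in limma. Over all 13443 genes, 0 (0.0%) passed the adjusted threshold and 215 (1.6%) had an unadjusted p under 0.05. The 95% intervals of the 33 genes reached from -0.50 to 0.66, so differences within that range are not excluded for the most variable genes. For CALR the interval was -0.07 to 0.17 and for HSPA5 it was -0.13 to 0.27.

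Within groups, levels varied with transcript length, over all genes and not only the 33. Over 13036 genes with a length, the slope of the log2(TPM + 1) deviation per doubling of length was computed. It was -0.032, 0.0081 and 0.0062 in the libraries with curcumin and CuCl2, and -0.030, 0.064 and -0.030 with curcumin. With palmitic acid alone it was 0.060, 0.037 and -0.082. The counts below were not made over all genes. The length used was the median over the annotated transcripts of a gene, 566 to 7496 bases and 2132.5 bases in the middle. In the third library with palmitic acid alone, 25 of the 33 genes were the lowest of their group, with a median length of 3050 bases, and 7 were the highest, with a median length of 1081 bases. In the second library with curcumin, 22 genes were the highest of their group (median 3055 bases) and 8 the lowest (median 1117 bases). Across the 33 genes, which share their library, log2 length correlated with the deviation from the gene's mean at -0.66, 0.22 and 0.09 in the 3 libraries with curcumin and CuCl2. The correlation was -0.59, 0.51 and -0.49 in those with curcumin, against 0.67, 0.62 and -0.56 in those with palmitic acid alone. The share of TPM from mitochondrial genes moved with it, being 10.1% in the third library with palmitic acid alone and 12.98% in the first.

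**Figure D3:**
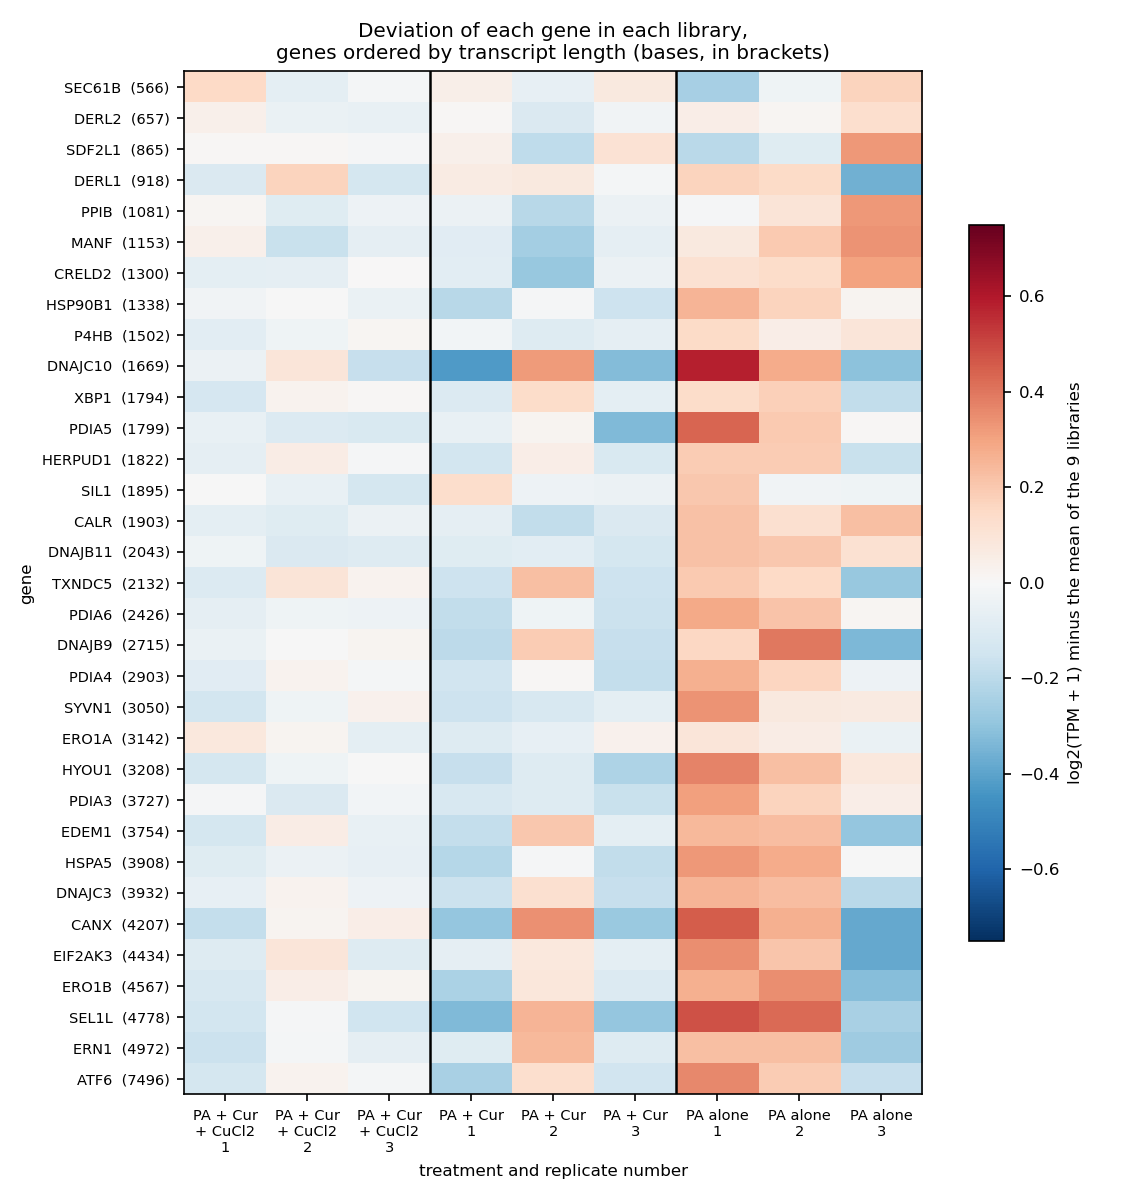
Deviation of log2(TPM + 1) from each gene's mean over the 9 libraries (colour), for the 33 genes ordered by transcript length in bases (y axis), in each library (x axis). The third library with palmitic acid alone tends to be lower for longer genes, unlike the first and second, and the second library with curcumin tends to be higher for longer genes. Exceptions in the third library with palmitic acid alone include the short DERL1 at -0.36 and the longer HYOU1 at 0.08.

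Further fits took these library measures as a covariate. Both measures were computed from the same TPM values that were fitted, and the 33 genes themselves entered the length slope. These fits are therefore no independent support for the results above. With the slope of expression on transcript length as a covariate, chosen after the data had been seen, 18 of the 33 genes were lower with curcumin than with palmitic acid alone, against 6.84% of all genes. With curcumin and CuCl2, 12 of the 33 genes were lower, against 6.06% of all genes. With the mitochondrial share as a covariate, 12 were lower with curcumin, against 4.78% of all genes, and 10 with curcumin and CuCl2, against 5.02% of all genes. No gene of the 33 was higher past the threshold in these fits. Among all genes, 5.2% were higher with curcumin and CuCl2 and 5.38% with curcumin under the length covariate, and 5.66% and 6.41% under the mitochondrial covariate. HSPA5, HSP90B1, PDIA3, PDIA6, MANF, CRELD2 and PPIB were among those that passed in each of them. The log2 fold change of HSPA5 with curcumin was -0.33 with the length covariate (limma adjusted p = 0.000352) and -0.27 with the mitochondrial covariate (limma adjusted p = 0.00167). XBP1 did not pass in any of them (log2 fold change -0.05 with the length covariate and 0.02 with the mitochondrial covariate). What the library measures stand for was not tested.

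Around these genes, 7 further lists of the ER and its stress response were examined. Of 17 translocation and signal peptidase genes, 19 N-glycosylation genes, 28 other folding factors, 20 genes of export and retrieval and 12 calcium-handling genes tested, 0 passed the limma adjusted threshold in either comparison with palmitic acid alone. At an unadjusted p under 0.05 with curcumin these lists held 1, 2, 6, 4 and 1 genes, against 14.0% of all genes. With the length covariate, 2, 5, 5, 5 and 2 genes of these lists were lower with curcumin, against 6.84% of all genes, and 2 folding factors were higher, against 5.38% of all genes. With the mitochondrial covariate, 1, 1, 4, 2 and 0 were lower with curcumin, against 4.78% of all genes. In that fit 1 folding factor was higher, against 6.41% of all genes. Their median log2 fold changes with curcumin lay between -0.11 and -0.02, each closer to 0 than the -0.19 of the 33 genes.

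**Figure D4:**
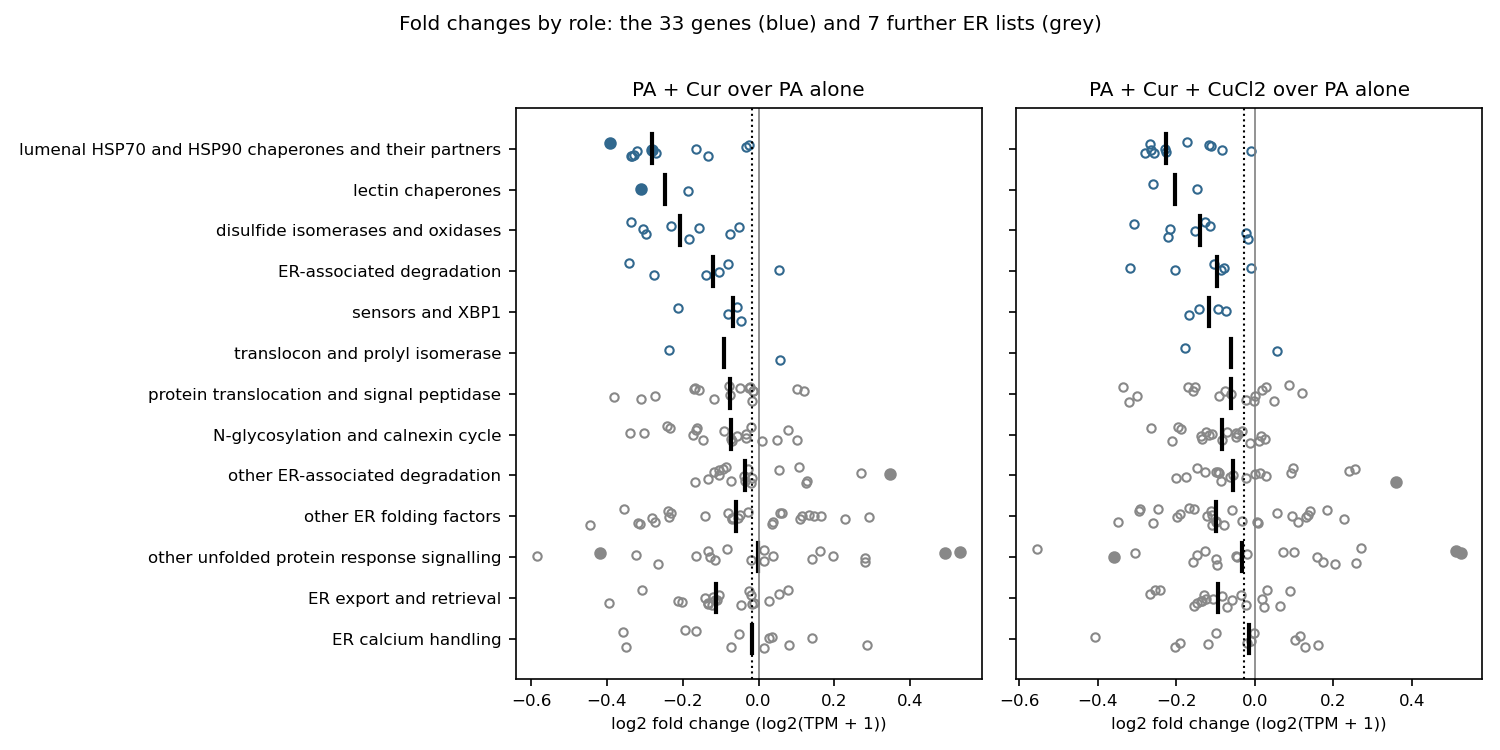
Log2 fold change on the log2(TPM + 1) scale (x axis) of each gene against palmitic acid alone, for the roles of the 33 genes (blue) and the 7 further ER lists (grey). Filled points passed the adjusted threshold, black bars are list medians and the dotted line is the median of all genes. The lumenal chaperones have the lowest median with curcumin, at -0.28, and the points that passed among the further lists are 3 higher genes and 1 lower one.

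Of 19 other genes of ER-associated degradation, 1 rose and 0 fell in each comparison with palmitic acid alone. Among all genes, 0.543% rose with curcumin and CuCl2 and 0.759% with curcumin. The gene was UFD1, which encodes a cofactor of the segregase p97, at 176, 176 and 177 TPM with curcumin and CuCl2, 174, 178 and 174 TPM with curcumin, and 138, 141 and 134 TPM with palmitic acid alone. All 6 libraries given curcumin, with or without CuCl2, lay above those with palmitic acid alone by far more than the spread within a group. The log2 fold change was 0.36 (SE 0.05, limma adjusted p = 0.0125) with curcumin and CuCl2, and 0.35 (SE 0.05, limma adjusted p = 0.0150) with curcumin.

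Among 20 other genes of unfolded protein response signalling, 2 rose and 1 fell in each comparison with palmitic acid alone, against 0.543% higher and 0.9% lower of all genes with curcumin and CuCl2, and 0.759% higher and 1.21% lower with curcumin. ASNS (asparagine synthetase) and CHAC1 (a glutathione-degrading enzyme) were the pair that rose. ASNS averaged 189 ± 5.59 TPM with curcumin and CuCl2, 191 ± 15.1 TPM with curcumin and 131 ± 6.41 TPM with palmitic acid alone (SD, n = 3 each), with a log2 fold change of 0.53 with curcumin (SE 0.07, limma adjusted p = 0.00814). CHAC1 averaged 56.3 ± 0.343 TPM, 55.6 ± 1.11 TPM and 39.2 ± 1.77 TPM in the same order, with a log2 fold change of 0.49 with curcumin (SE 0.07, limma adjusted p = 0.00755). Both were higher in all 6 libraries given curcumin, with or without CuCl2, than in any with palmitic acid alone.

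PPP1R15A, which encodes GADD34, the subunit that lets translation resume, fell. It averaged 297 ± 7.39 TPM with curcumin and CuCl2, 285 ± 17.6 TPM with curcumin and 381 ± 17.2 TPM with palmitic acid alone (SD, n = 3 each). Its log2 fold change was -0.42 with curcumin (SE 0.06, limma adjusted p = 0.0159). ATF4, the transcription factor of the PERK branch, stood at 902, 875 and 892 TPM with curcumin and CuCl2, at 910.15, 854 and 893 TPM with curcumin, and at 765, 778 and 773 TPM with palmitic acid alone. All 6 libraries given curcumin were higher than any with palmitic acid alone, and the log2 fold change of 0.20 missed the threshold in both comparisons (limma adjusted p = 0.0803 with CuCl2 and 0.0837 without). It passed in both with either covariate, at a log2 fold change of 0.20 (limma adjusted p = 0.00505) with CuCl2 and 0.20 (limma adjusted p = 0.00498) without in the fits with the length covariate. DDIT3, which encodes CHOP, had log2 fold changes of 0.07 and 0.02 and overlapping groups. ATF3, another transcription factor of this list, missed the threshold in both comparisons. It averaged 146 ± 3.93 TPM with curcumin and CuCl2, 144 ± 16.2 TPM with curcumin and 219 ± 46.8 TPM with palmitic acid alone (SD, n = 3 each). Both groups given curcumin lay below palmitic acid alone without overlap.

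These 4 calls were lost under some alternatives. With curcumin, all 4 were lost in the fit on only the 6 libraries compared, which for ASNS was the only loss in 20 alternatives (limma adjusted p = 0.0908). UFD1 and PPP1R15A were also lost without a variance trend, and PPP1R15A with median-of-ratios scaling. With curcumin and CuCl2, UFD1 and PPP1R15A were lost in the 6-library fit and without a variance trend, and PPP1R15A with median-of-ratios scaling or no filter. When single libraries were left out, UFD1 with curcumin missed the threshold without the first or the third library of curcumin, CHAC1 without the third, and PPP1R15A without the second or the third, the highest adjusted p of any alternative being 0.122, 0.0908 and 0.125. With curcumin and CuCl2, ASNS, UFD1 and PPP1R15A missed it without any 1 of the 3 libraries of that group, and CHAC1 without the third. PPP1R15A also missed it there without the first or second library of palmitic acid alone or the third of curcumin (highest adjusted p 0.154).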

How the data were processed

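Messenger RNA of 9 libraries was sequenced, per the labels' protocols after a stranded library preparation for polyadenylated RNA. The authors deposited 1 table of TPM values, which have the same total in every library and keep no depth, so no counting interval or count model was possible. Per the submitters' processing notes, which give no roles or annotation release, HISAT2 2.1.0, RSEM 1.3.3 and GRCh38.p13 were used. RSEM estimates how reads shared by similar genes divide, so genes with near-identical copies are uncertain.

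Groups came from the sample titles. The 13443 genes that averaged 1 TPM or more were fitted as log2(TPM + 1) with limma 3.58.1 (R 4.3.3) over all 9 libraries, with a variance trend. All p-values are two-sided and adjusted over all genes kept. The labels do not say that replicates were separate cultures, so p-values measure the spread between libraries, which may be technical. The fit was tested on simulated data. That test drew noise for each gene separately and planted changes larger than any of the 33 genes had. It therefore did not cover variation shared within a library, or changes as small as theirs. The 33 genes, the further lists and the alternatives were chosen with earlier results of these data known. Values were given in full for genes past the threshold, for HSPA5, HSP90B1, XBP1, ERN1, ATF6 and EIF2AK3, and for the genes with the highest and lowest fold change of a comparison. From each further list up to 3 genes past the threshold with the largest change were named, with ATF4 and DDIT3. ATF3 was added after its values had been seen. Coordinates are from GENCODE release 29 on GRCh38, promoter windows from RefSeq on GRCh38.p14. The letters of the 3 promoter elements searched are background knowledge, not taken from the deposited data. No promoter window was used for DERL1 and PDIA3. Alternatives are described in the closing section. Figures were drawn with matplotlib 3.10.9.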

Additional observations from a re-analysis of the deposited data

How the results depend on the processing

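Each setting was changed alone. The pseudocount was set to 0.1 and to 5, and the filter was dropped or raised to 5 TPM. Median-of-ratios scaling was used, and mitochondrial genes were left out. The fit was made on the 6 libraries compared, with a replicate block, without the variance trend, with the mitochondrial share as a covariate, and without each library. Chosen after seeing the data was the transcript length slope as a covariate. CALR passed the threshold for curcumin against palmitic acid alone in 8 of these 20, DNAJB11 and HYOU1 in 7 each, and none of the 3 changed sign. Of the 33 genes, the number past the threshold with curcumin against palmitic acid alone was 3, but 0 with no filter, no variance trend or only the 6 libraries compared, 1 with median-of-ratios scaling, 2 without mitochondrial genes (HYOU1 lost), 12 with the mitochondrial covariate, 18 with the length covariate, and 0 to 8 with a library left out. With curcumin and CuCl2 it was 0, but 1 (CALR) with a minimum of 5 TPM or without mitochondrial genes, 10 and 12 with the covariates, and 0 to 5 with a library left out. Between curcumin with CuCl2 and curcumin it was 0 in all 20. Over all genes, the counts with curcumin were 264, but 104 with no filter, 130 with no variance trend, 35 with only the 6 libraries compared, 1505 and 1642 with the mitochondrial and length covariates, and 54 to 619 with a library left out. With curcumin and CuCl2 they were 194, but 114, 133, 65, 1436, 1513 and 46 to 527 in the same order. Between curcumin with CuCl2 and curcumin they were 0, but 1 with a pseudocount of 5, 3 with no filter, with only the 6 libraries compared or with the length covariate, and 0 to 4 with a library left out. The cause of these moves was not tested, except that fits on 6 or 8 libraries have fewer samples.

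No pairing of the libraries by replicate number was seen: correlations of same-numbered libraries ran from -0.27 to 0.25, and 3 of 9 correlated best with their own number. With deviations taken from means of only 3 libraries, a pairing could have been missed. With the replicate block, 1 of the 33 genes (CALR) passed with curcumin and 0 with curcumin and CuCl2, and 177, 147 and 0 of all genes passed in the 3 comparisons.

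The sign of the log2 fold change turned under some alternative for 10 of the 33 genes with curcumin and 9 with curcumin and CuCl2 against palmitic acid alone, and for 16 between curcumin with CuCl2 and curcumin, none of which had passed the threshold. With curcumin, the mitochondrial covariate gave 0.061 for TXNDC5, 0.036 for EDEM1, 0.021 for XBP1, 0.064 for ERN1, 0.040 for EIF2AK3, -0.013 for SEC61B and -0.037 for DDIT3, and median-of-ratios scaling gave 0.0078 for SDF2L1. With curcumin and CuCl2, the mitochondrial covariate gave 0.019 for DNAJB9, 0.0063 for CANX, 0.078 for TXNDC5, 0.067 for DERL1, 0.0082 for EIF2AK3 and -0.0024 for SEC61B, median-of-ratios scaling gave 0.036 for SDF2L1, 0.029 for TXNDC5, 0.022 for ERO1A and 0.036 for DERL1, and the length covariate gave 0.024 for TXNDC5 and 0.022 for DERL1. Between curcumin with CuCl2 and curcumin, the length covariate gave 0.00046 for XBP1. With a library left out, the ranges with curcumin were -0.026 to 0.093 for DDIT3, -0.12 to 0.15 for DERL1, -0.34 to 0.030 for DNAJB9, -0.26 to 0.0088 for EDEM1, -0.30 to 0.066 for EIF2AK3, -0.21 to 0.037 for ERN1, -0.13 to 0.13 for SDF2L1, -0.049 to 0.16 for SEC61B, -0.089 to 0.044 for SIL1, -0.20 to 0.037 for TXNDC5 and -0.17 to 0.010 for XBP1. Those with curcumin and CuCl2 were -0.40 to 0.024 for CANX, -0.18 to 0.083 for DERL1, -0.29 to 0.079 for DNAJB9, -0.31 to 0.052 for EIF2AK3, -0.065 to 0.018 for ERO1A, -0.32 to 0.012 for ERO1B, -0.12 to 0.15 for SDF2L1, -0.049 to 0.16 for SEC61B and -0.17 to 0.071 for TXNDC5. Between curcumin with CuCl2 and curcumin they were -0.15 to 0.016 for ERN1 and -0.062 to 0.058 for XBP1. Depth is unknown, so its effect on low genes such as ERN1 and ERO1B cannot be stated.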

Other observations

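The 33 genes could be divided by the promoter letters printed above. The 11 genes with an ERSE or ERSE-II in a promoter window had a median log2 fold change of -0.17 with curcumin and CuCl2 and -0.27 with curcumin against palmitic acid alone. Of these 11, 2 fell with curcumin (CALR and HYOU1), against 1.21% of all genes, and 6 lay below palmitic acid alone without overlap, against 8.61% of all genes. The 20 genes with a window but neither element had medians of -0.14 with curcumin and CuCl2 and -0.16 with curcumin, and with curcumin 1 of the 20 fell (DNAJB11) and 6 lay below palmitic acid alone without overlap. XBP1, SDF2L1 and HERPUD1 hold an element and had log2 fold changes of -0.06, -0.03 and -0.14 with curcumin. The difference between the 2 divisions was not tested.

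Outside the 33 genes, 33 other genes had an ERSE or ERSE-II in a promoter window, and 19 of them passed the filter on low values. Their log2 fold change was below 0 for 18 of the 19 with curcumin and CuCl2 and for 16 of the 19 with curcumin, with medians of -0.17 and -0.15. Among all genes these shares were 56.1% and 53.5%, and the medians -0.03 and -0.02. None passed the limma adjusted threshold in either comparison. Among them was FICD, which encodes an enzyme that switches BiP off and on, with log2 fold changes of -0.29 with curcumin and CuCl2 and -0.36 with curcumin (limma adjusted p = 0.469 and 0.352). SERP1, which encodes a protein that stabilizes newly made membrane proteins, had log2 fold changes of -0.15 and -0.20 (limma adjusted p = 0.379 and 0.193). FICD and SERP1 were chosen after their values had been seen.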
